A study of Mus musculus with 10 samples.

Results

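The genes described here are 7 of the 18194 that the arrays read by at least 1 probe set of their own: F13a1, Fcmr, Nrn1, Epcam, Cybb, Neb and Ncmap. They were chosen because they were among the largest increases in regulatory T cells that hold Foxp3 protein, set against cells that read the Foxp3 locus without making the protein or against CD25+ cells without Foxp3 protein. They were picked from lists of such increases as genes that are less often discussed in these cells, so the size of those increases is how they were found and is given only as a description. They have 10 probe sets in all, short DNA features of the array that match 1 transcript. Each gene was read by its brightest probe set on average, and all 7 passed the filter on dim genes that left 11939 genes.

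Foxp3 is the transcription factor that regulatory T cells need in order to hold back other immune cells. It binds with partner factors at many genes and raises some and lowers others, so a cell that reads the locus without the protein shows which part of the regulatory profile is present without it. IL-2 is the growth factor that regulatory T cells depend on and receive through CD25. The 7 genes have unlike products: a clotting enzyme, a receptor for IgM, a neuronal growth protein, an epithelial adhesion protein, a subunit of the phagocyte oxidase, a muscle filament protein and a myelin membrane protein.

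RNA was measured on 10 Affymetrix mouse arrays, 1 for each of 10 groups, in CD4 T cells sorted from pooled lymph nodes and spleen of female mice aged 6 to 8 weeks. Mice of the line Foxp3(gfp/gfp), which carry Foxp3 fused to green fluorescent protein (GFP) on both X chromosomes and were backcrossed 8 to 10 times from 129/Sv to C57BL/6, gave 3 populations. These were GFP- CD25- cells (CD25neg), GFP- CD25+ cells (CD25pos) and GFP+ cells, which hold Foxp3 (GFPfoxp3). Foxp3(gfpko/wt) females, backcrossed 5 times, carry 1 allele that makes GFP instead of Foxp3, and their GFP+ cells (GFPko) use that allele. Those mice also have cells that use the intact allele and make Foxp3. Genotype, number of backcrosses and the presence of intact regulatory cells in the host cannot be told apart between GFPko and GFPfoxp3. For CD25pos, GFPko and GFPfoxp3 a further array each came from IL-2-injected mice, which received 4 doses of 50 ng per g within 24 h and were used 30 min after the last. The labels do not say whether untreated mice received vehicle, or how many animals fed each array.

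The other 3 arrays came from a separate experiment with C57BL/6 cells. CD25+ CD4+ cells were stimulated through CD3 and CD28 with IL-2 in culture and transduced with the retroviral vector MigR1 alone (MigR1_empty), or with MigR1 carrying the phosphodiesterase PDE3B (MigR1_PDE3B) or its H801A form (MigR1_PDE3B_H801A). They were mixed with CD25- CD4+ Ly5.1+ cells carrying the same vector, and passed for 3 weeks through recipients that lack TCRalpha and so have no alpha-beta T cells of their own. GFP+ GITR+ CD4+ Ly5.1- cells were then sorted. In these arrays GFP marks the vector and not Foxp3, GITR stood in for Foxp3, and the cultures held over 70% Foxp3+ cells, over 55% of which were transduced. Experiment, culture, transduction, transfer and genetic background cannot be told apart when these 3 arrays are set against the sorted cells.

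All values are log2 expression values, and levels are compared only within a probe set. A probe set below the median of all probe sets of an array (3.04 to 3.22 over the 10 arrays) is treated as not above background there. Foxp3 itself was at 2.45 in CD25neg, 3.90 and 2.85 in CD25pos without and with IL-2, 8.33 and 9.40 in GFPko, 10.86 and 10.86 in GFPfoxp3, and 11.26 to 11.52 in the vector arrays. The order of Foxp3 thus follows the labels, with the locus read but at a lower level in GFPko. The difference between the 3′ and 5′ probe sets of Actb, a measure of how short the amplified RNA is, was 2.70 to 3.80 in the sorted cells and 5.87 to 6.38 in the vector arrays. All 9 T cell markers measured were above background on every array. In bulk RNA, fewer cells of a type and less RNA per cell cannot be told apart.

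The contrasts that chose the genes were of unequal size. Over the mean of the untreated and the IL-2 pair, GFPfoxp3 was higher than GFPko by 5.42 for F13a1, 4.99 for Nrn1, 4.54 for Fcmr, 4.13 for Epcam, 4.09 for Cybb, 3.44 for Ncmap and 1.82 for Neb (log2 differences). Over CD25pos it was higher by 4.71 for F13a1, 4.50 for Fcmr, 4.38 for Neb, 3.86 for Ncmap, 3.56 for Epcam, 3.12 for Nrn1 and 2.13 for Cybb. F13a1 and Fcmr were thus near the top of both contrasts, whereas Neb stood out over CD25pos and Nrn1 and Cybb over GFPko. In both contrasts and in both pairs all 7 were at least 2-fold higher in GFPfoxp3, against 3.38% of all genes over GFPko and 3.12% over CD25pos, a count that the choice itself fixes. At least 3-fold in both pairs over GFPko were 6 of the 7, without Neb, and 1.34% of all genes. Among called increases over GFPko, Cybb was the last of the 7 in the top 8 and Mtmr7, at 3.76, the next gene outside it. Over CD25pos the corresponding genes were Ncmap, at 3.86, and Ppm1l, at 3.84.

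**Figure D1:**
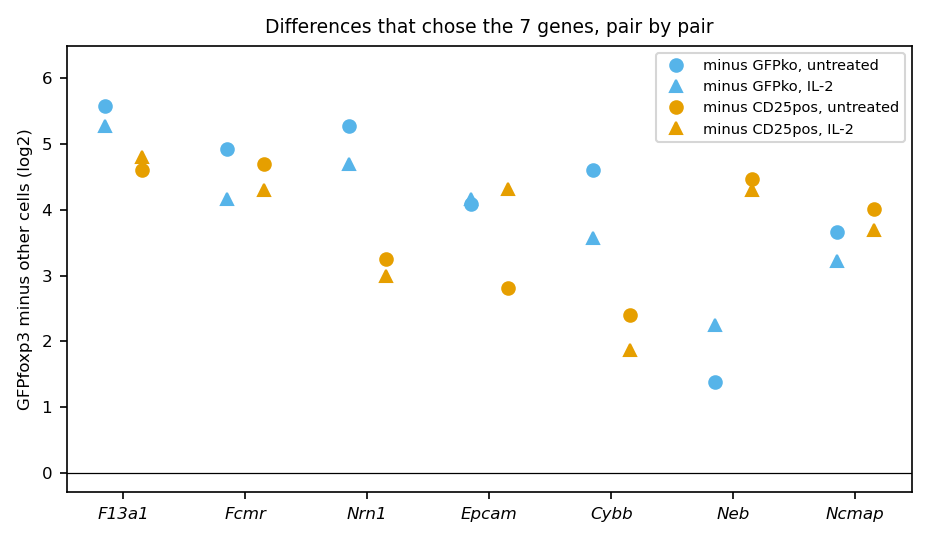
Log2 difference of GFPfoxp3 from GFPko (blue) and from CD25pos (orange) for each of the 7 genes, untreated (circles) and after IL-2 (triangles), 1 array on each side. These are the differences that chose the genes; Neb is the lowest over GFPko, at 1.38 and 2.25, and Cybb the lowest over CD25pos, at 2.41 and 1.86.

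Starts of transcription are shown for F13a1 and Fcmr, which were both high on the GFPfoxp3 arrays and low on the other 8, and for Cybb, which alone held a searched motif. The sequences are the 250 bases before the start, 5′ to 3′ on the gene's own strand, from RefSeq on GRCm38.p6. They lie at chr13:37050245-37050494 on the minus strand for F13a1 (the first of its 2 listed starts), chr1:130865527-130865776 on the plus strand for Fcmr, and chrX:9469325-9469574 on the minus strand for Cybb. Capitals mark motif matches.
F13a1: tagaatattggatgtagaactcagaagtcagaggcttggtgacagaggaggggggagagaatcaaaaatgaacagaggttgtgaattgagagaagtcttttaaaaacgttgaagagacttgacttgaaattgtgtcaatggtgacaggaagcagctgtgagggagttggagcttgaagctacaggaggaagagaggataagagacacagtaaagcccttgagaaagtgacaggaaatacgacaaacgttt
Fcmr: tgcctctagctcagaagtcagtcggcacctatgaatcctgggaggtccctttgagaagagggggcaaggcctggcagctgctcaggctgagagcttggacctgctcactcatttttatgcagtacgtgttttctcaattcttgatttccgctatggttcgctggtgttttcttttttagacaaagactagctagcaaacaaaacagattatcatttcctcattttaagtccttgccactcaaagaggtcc
Cybb: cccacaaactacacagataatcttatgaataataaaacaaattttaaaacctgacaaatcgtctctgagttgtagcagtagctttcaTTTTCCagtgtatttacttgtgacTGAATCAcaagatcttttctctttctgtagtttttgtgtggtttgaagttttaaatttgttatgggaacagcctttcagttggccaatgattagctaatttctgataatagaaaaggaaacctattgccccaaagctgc
Both strands were searched for a forkhead motif (GTAAACA, the family of Foxp3), a STAT motif (TTCNNNGAA, bound by the factors that IL-2 activates), an AP-1 motif (TGANTCA) and an NFAT-like motif (GGAAAA), both of which are bound by factors of T cell activation. Over 32851 promoters of the same length these letters are found in 3.17%, 7.02%, 6.75% and 20.4%. Entries were found for 5 of the 7 genes, and Nrn1 and Neb had none. Cybb held an AP-1 match 139 to 133 bases before the start and an NFAT-like match on the opposite strand 163 to 158 bases before it. The AP-1 and NFAT-like matches do not overlap. The windows of F13a1, Fcmr, Epcam and Ncmap held none of the 4 motifs, which says only that these letters are not in these windows.

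F13a1 and Fcmr were high in GFPfoxp3 and at or near background on the other 8 arrays. F13a1 makes the catalytic A chain of factor XIII, the transglutaminase that crosslinks fibrin, and is known from platelets and macrophages. It was at 7.91 in GFPfoxp3 and 7.67 in GFPfoxp3_IL2. It was at 2.80 in CD25neg, 3.30 in CD25pos, 2.87 in CD25pos_IL2, 2.33 in GFPko, 2.40 in GFPko_IL2, 2.90 in MigR1_empty, 2.89 in MigR1_PDE3B and 2.89 in MigR1_PDE3B_H801A. Both GFPfoxp3 arrays were thus over 4 log2 units above every other array, and the other 8 lay within 1 unit of each other. On 7 of the 10 arrays F13a1 was below the array median, CD25pos being the only array outside GFPfoxp3 where it was not. As a bound, GFPfoxp3 was at least 26.1-fold above GFPko, taking background as the array median. Among the 8 low arrays, the 3 vector arrays, CD25pos_IL2 and CD25neg followed each other in steps smaller than the gene's moderated SD in the fit (0.153), so their order carries nothing. Here and for the genes below, that SD comes from the 6 arrays of the fit, without CD25neg and the vector arrays. It does not measure noise between the experiments.

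Fcmr makes the Fc receptor for IgM and is known mainly from B cells. It was at 7.67 in GFPfoxp3 and 7.02 in GFPfoxp3_IL2. The other levels were 2.74 in CD25neg, 2.98 in CD25pos, 2.71 in CD25pos_IL2, 2.75 in GFPko, 2.86 in GFPko_IL2, 2.99 in MigR1_empty, 2.98 in MigR1_PDE3B and 3.20 in MigR1_PDE3B_H801A. Fcmr was below the array median on 7 arrays, and outside GFPfoxp3 it reached the median in MigR1_PDE3B_H801A alone. GFPfoxp3 was at least 19.2-fold above GFPko and at least 19.4-fold above CD25pos. From MigR1_empty down to CD25pos_IL2, each step between neighbouring levels of Fcmr was smaller than its moderated SD (0.206).

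**Figure D2:**
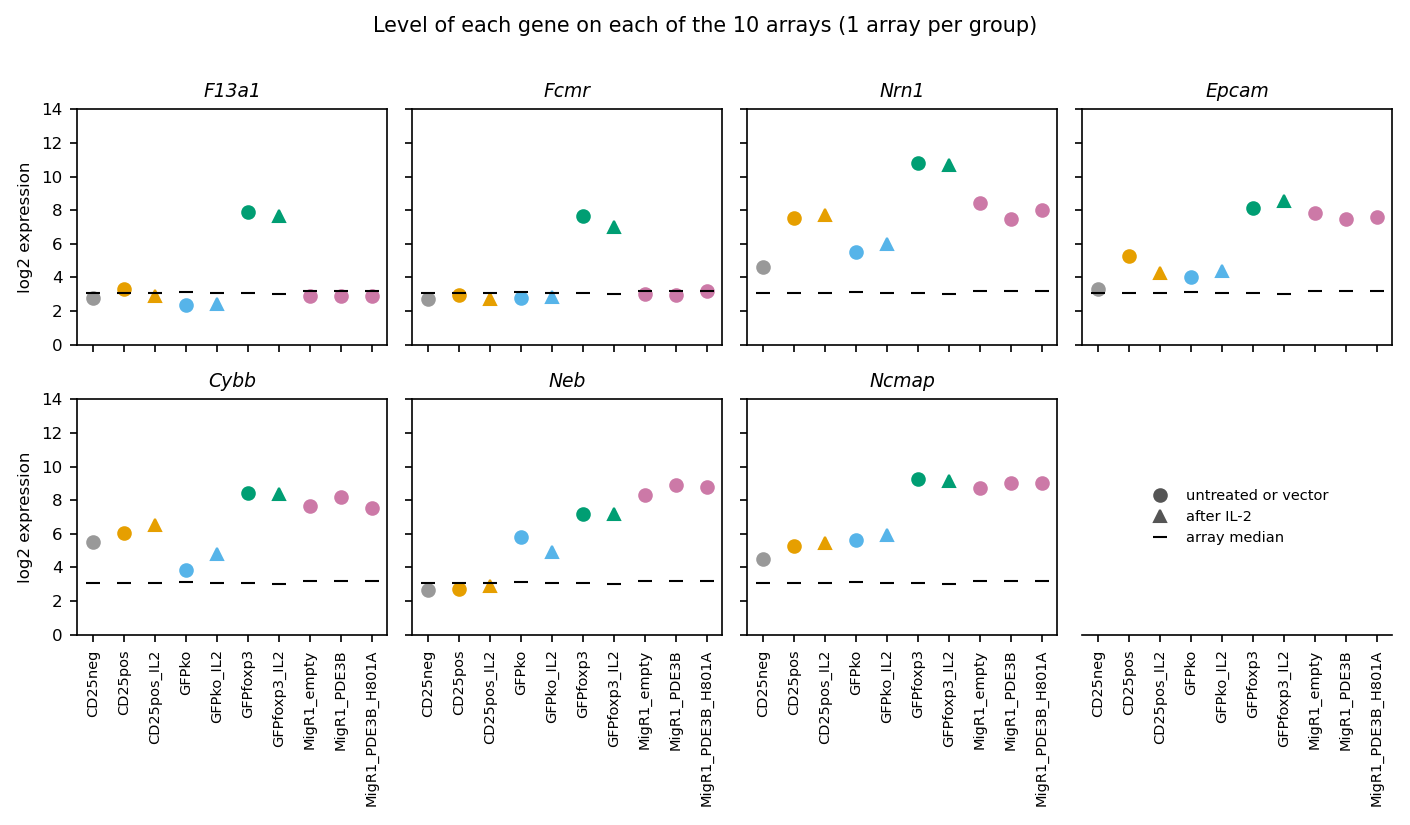
Log2 expression of each of the 7 genes on each of the 10 arrays, 1 point per array, with circles for untreated or vector arrays, triangles for arrays after IL-2 and black dashes for the array median. F13a1 and Fcmr are high on the 2 GFPfoxp3 arrays and near the median elsewhere, whereas Epcam, Cybb, Neb and Ncmap are also high on the 3 vector arrays, at 7.47 or above.

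Markers of the cells in which F13a1 and Fcmr are best known were read on the same arrays. Of 6 platelet and megakaryocyte markers, 0 were above background on any array. Of 12 myeloid markers, 3 were above it on each GFPfoxp3 array and 3 to 7 over all arrays, and their summed linear level was 77 and 79 in GFPfoxp3, against 119 and 143 in GFPko, 101 and 86 in CD25pos and 91 to 104 in the vector arrays. In CD25neg the myeloid sum was 86. The median level of these markers was 2.46 to 3.19 over the arrays, near background, so small differences between the sums carry little. Among single markers, Fcgr3 was at 5.48 in GFPko and Lyz2 at 5.70 in GFPko_IL2. The part of myeloid RNA in the F13a1 values of GFPfoxp3 was not tested. Of 10 B cell markers, 5 were above background on each GFPfoxp3 array and 4 to 6 over all arrays. Their summed level was 4813 and 4424 in GFPfoxp3, 1403 and 1005 in GFPko, 2469 and 2340 in CD25pos, 3045 in CD25neg and 5732 to 6493 in the vector arrays, most of it from Ighm, the IgM heavy chain. The B cell sum was highest on the vector arrays, where Fcmr was at or near background. Cd79b, a signalling chain of the B cell receptor, was at 6.71 and 6.96 in GFPfoxp3, 5.02 and 5.36 in GFPko, 3.26 and 3.88 in CD25pos and 6.77 to 8.23 in the vector arrays. Ms4a1 (CD20) was at 3.42 and 3.43 in GFPfoxp3, close to the median, and 3.31 to 4.16 over all arrays. Its highest levels were in the vector arrays, at 3.73 to 4.16. Ebf1, a B lineage factor, was at 3.19 to 3.46, close to the median. Cd22, of the same list, was at 4.97 and 4.98 in GFPfoxp3 and 2.82 and 4.4 in GFPko. It was at 6.67 and 6.56 in CD25pos, 5.46 in CD25neg and 5.42 to 6.47 in the vector arrays. Unlike Cd79b, Cd22 was thus higher in CD25pos than in GFPfoxp3. The part of B cell RNA in the Fcmr values of GFPfoxp3 was not tested.

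F13a1 and Nrn1 are next to each other among the protein-coding genes of chromosome 13 in GRCm38.p6, which was looked up after their values were seen. Nrn1 makes neuritin, a small membrane-anchored protein that promotes the growth of neurites and is also known from T cells. It was at 10.79 in GFPfoxp3 and 10.69 in GFPfoxp3_IL2, and at 8.40, 7.50 and 8.02 in MigR1_empty, MigR1_PDE3B and MigR1_PDE3B_H801A. It was at 7.54 and 7.70 in CD25pos without and with IL-2, 5.51 and 5.99 in GFPko and 4.62 in CD25neg. Nrn1 was above background on all 10 arrays and formed a ladder, with GFPfoxp3 at the top, the vector arrays and CD25pos overlapping in the middle, and GFPko and CD25neg below. CD25pos was above CD25neg by 2.92, and GFPko minus CD25pos was -2.03 untreated and -1.71 after IL-2. Only Nrn1 and Epcam (1.96) were at least 2-fold higher in CD25pos than in CD25neg, as were 5.55% of all genes, and only Neb (3.13) and Ncmap (1.13) were so in GFPko, as were 3.93%. The steps between CD25pos_IL2, CD25pos and MigR1_PDE3B were smaller than the moderated SD of Nrn1 (0.171).

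The gene on the other side of Nrn1, Fars2, which makes a mitochondrial tRNA synthetase, ran from 5.91 to 7.58. It was highest in GFPfoxp3_IL2 (7.58) and GFPfoxp3 (7.50), 7.20 in CD25pos_IL2, 6.36 to 6.82 in the remaining sorted cells and 5.91 to 6.27 in the vector arrays. The gene beyond F13a1, Ly86, stayed below background at 1.96 to 2.05. Over the 10 arrays the levels of F13a1 and Nrn1 correlated with r = 0.841, and F13a1 with Fcmr, on another chromosome, with r = 0.992. Both r rest mainly on the GFPfoxp3 arrays being high, since all genes here were chosen for that.

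Epcam makes an adhesion protein of epithelial cells that is also found on some lymphoid and dendritic cells. It was at 8.10 in GFPfoxp3 and 8.56 in GFPfoxp3_IL2, and at 7.82, 7.47 and 7.61 in MigR1_empty, MigR1_PDE3B and MigR1_PDE3B_H801A. It was at 5.29 and 4.25 in CD25pos without and with IL-2, 4.01 and 4.40 in GFPko, and 3.33 in CD25neg. The GFPfoxp3 and vector arrays formed an upper group with a gap of 2.18 to the next array, CD25pos. From GFPfoxp3 down through the vector arrays, each step between neighbouring levels was smaller than the moderated SD of Epcam (0.423). The upper group as a whole ran from 7.47 to 8.56, and the vector arrays were not in the fit that gave this SD. A second Epcam probe set, whose identifier marks possible matches to other transcripts (_x_at), did not show this pattern and stayed between 4.45 and 5.49 on all arrays. The identifier of the probe set used for the values above also carries a mark (_a_at). An alternative that left out marked probe sets of both kinds therefore held no Epcam value. Averaging both probe sets gave 2.08 over GFPko and 1.82 over CD25pos in place of 4.13 and 3.56. Of 8 epithelial markers, 2 and 4 were above background in GFPfoxp3 without and with IL-2, and their summed linear level was 61 to 73 over all arrays. Cdh1 (E-cadherin) was at 3.03 and 3.06 in GFPfoxp3, next to the array medians, and 3.16, 3.79 and 3.47 in MigR1_empty, MigR1_PDE3B and MigR1_PDE3B_H801A. Krt18 was at 2.86 and 3.36 in GFPfoxp3, 4.37, 3.35 and 3.32 in those vector arrays and 2.80 to 2.98 elsewhere. Sfn was at 3.82 and 4.01 in GFPfoxp3, 3.23 to 3.57 in the vector arrays and 3.80 to 4.04 elsewhere. Krt5 was at 3.55 to 3.96 over all arrays. The part of epithelial RNA in the Epcam values was not tested. St14, of the list of epithelial adhesion genes below, was at 6.01 and 6.18 in GFPfoxp3. It was at 7.19 to 8.34 in the vector arrays and 2.93 to 5.12 elsewhere.

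Ncmap makes a membrane protein of noncompact myelin. It was at 9.27 in GFPfoxp3 and 9.15 in GFPfoxp3_IL2, and at 8.72, 9.01 and 9.01 in MigR1_empty, MigR1_PDE3B and MigR1_PDE3B_H801A. It was at 5.93 and 5.61 in GFPko with and without IL-2, 5.45 and 5.26 in CD25pos, and 4.48 in CD25neg. The 5 upper arrays lay within 0.55 of each other and 2.79 above the next, so Ncmap was high in GFPfoxp3 and vector arrays alike. Of 4 glia and nerve markers, 1 or 2 were above background on each array. Mbp, which makes myelin basic protein and has transcripts in lymphoid cells too, was at 9.39 and 9.34 in GFPfoxp3. It was at 9.89 to 10.22 in the other sorted cells and 8.07 to 8.27 in the vector arrays. Sox10 was at 3.59 in GFPfoxp3_IL2 and 3.06 to 3.08 on the other arrays. S100b was at 3.26 in MigR1_PDE3B and 2.65 to 2.79 elsewhere. The part of glia and nerve RNA in the Ncmap values was not tested.

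Neb makes nebulin, the long protein that runs along the thin filaments of skeletal muscle. It was at 8.29, 8.91 and 8.77 in MigR1_empty, MigR1_PDE3B and MigR1_PDE3B_H801A, and at 7.18 in GFPfoxp3 and 7.17 in GFPfoxp3_IL2. It was at 5.80 and 4.92 in GFPko without and with IL-2, 2.72 and 2.87 in CD25pos and 2.67 in CD25neg. Neb was the only one of the 7 genes with its highest levels outside GFPfoxp3, and the only one that was well above background in GFPko but below background in CD25pos and CD25neg. GFPko was above CD25pos by 3.08 untreated and 2.05 after IL-2, at least 2-fold in both pairs, as were 1.07% of all genes. In that contrast Nrn1 and Cybb were at least 2-fold lower in both pairs, as were 1.99% of all genes, and the remaining 4 genes passed in neither direction. Of 8 skeletal muscle markers, 2 or 3 were above background on each array. Their summed level was 76 and 74 in GFPfoxp3, 66 to 86 in the vector arrays and 108 in CD25neg. It was 92 and 96 in GFPko and 89 and 82 in CD25pos. The brightest of these markers, Mylpf, was at 4.05 to 5.90 over the arrays. Their median level was 2.74 to 2.96, near background, so small differences between the sums carry little. The part of muscle RNA in the Neb values was not tested.

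Cybb makes gp91phox, the catalytic subunit of the phagocyte NADPH oxidase, which forms superoxide. It was at 8.43 in GFPfoxp3 and 8.37 in GFPfoxp3_IL2, and at 7.62, 8.17 and 7.52 in MigR1_empty, MigR1_PDE3B and MigR1_PDE3B_H801A. It was at 6.02 and 6.52 in CD25pos without and with IL-2, 5.50 in CD25neg, and 3.82 and 4.81 in GFPko. Cybb thus had its lowest levels in GFPko, below even CD25neg in untreated cells (a difference of -1.68), at least 2-fold, as were 2.8% of all genes. It was the only one of the 7 genes at least 2-fold lower in that pair. A second probe set of Cybb was below background on all arrays, and the third was above it only in GFPfoxp3 (3.21) and GFPfoxp3_IL2 (3.22). Averaging the 3 probe sets gave 2.66 over GFPko and 1.69 over CD25pos in place of 4.09 and 2.13. The myeloid markers as a list are given above with F13a1, and their part in the Cybb values was not tested. Of single markers, Tyrobp was at 2.08 in both GFPfoxp3 arrays and 2.15 to 2.23 in the vector arrays, below background. Lyz2 (3.28 and 3.55), Adgre1 (3.22 and 3.18) and Csf3r (3.10 and 3.22) were just above background in GFPfoxp3. Lyz2 was at 4.03, 3.72 and 3.30 in MigR1_empty, MigR1_PDE3B and MigR1_PDE3B_H801A. Csf1r was at 2.16 and 2.28 in GFPfoxp3, but at 4.34, 2.48 and 4.09 in MigR1_empty, MigR1_PDE3B and MigR1_PDE3B_H801A and so above background on 2 of the 3 vector arrays.

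The other oxidase genes were followed as a list. Of 8 measured and kept besides Cybb, 2 rose and 0 fell in GFPfoxp3 over GFPko, and likewise 2 and 0 over CD25pos, where of all genes 5.44% and 5.28% rose and 2.03% and 3.45% fell (limma, adjusted p under 0.05). Here and for the lists below, these p-values measure how alike the differences between populations were without and with IL-2. They say nothing about spread between animals. The list's median difference was 0.33 and 0.43, against 0.01 and -0.03 over all genes. Ncf1, the cytosolic organizer p47phox, was at 7.07 and 7.34 in GFPfoxp3, 5.52 and 5.58 in GFPko, 4.70 and 5.12 in CD25pos, 4.0 in CD25neg and 4.72 to 5.06 in the vector arrays. In the fit it rose by 1.65 over GFPko (SE 0.129, limma adjusted p = 0.0119) and by 2.29 over CD25pos (limma adjusted p = 0.00579). Ncf4 (p40phox) rose by 0.96 over GFPko (SE 0.137, limma adjusted p = 0.0344) and by 1.44 over CD25pos (limma adjusted p = 0.0142), and was at 10.43 and 10.56 in GFPfoxp3 and 10.23 to 10.83 in the vector arrays. Ncf1 passed in both contrasts under all 9 alternatives of processing, but with the mean of all its probe sets its differences were 0.86 and 1.12. Ncf4 passed over CD25pos under all 9 but over GFPko under 6, with a highest adjusted p of 0.077. Ncf4 was as high in the vector arrays as in GFPfoxp3, whereas Ncf1 there was over 2 log2 units lower. Cyba, the membrane partner of Cybb, was at 11.14 to 12.36 on all arrays and did not pass over GFPko (0.30, limma adjusted p = 0.464) or CD25pos (0.53 in log2 units). Cybc1, a chaperone of the pair, differed by 0.42 (limma adjusted p = 0.134) and 0.58 (limma adjusted p = 0.0719). Rac2, the GTPase of the complex, differed by 0.35 and Rac1 by -0.03 over GFPko, neither passing. Nox4 (2.88 to 3.07) and Noxo1 (2.67 to 3.89) of related oxidases stayed close to background.

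**Figure D3:**
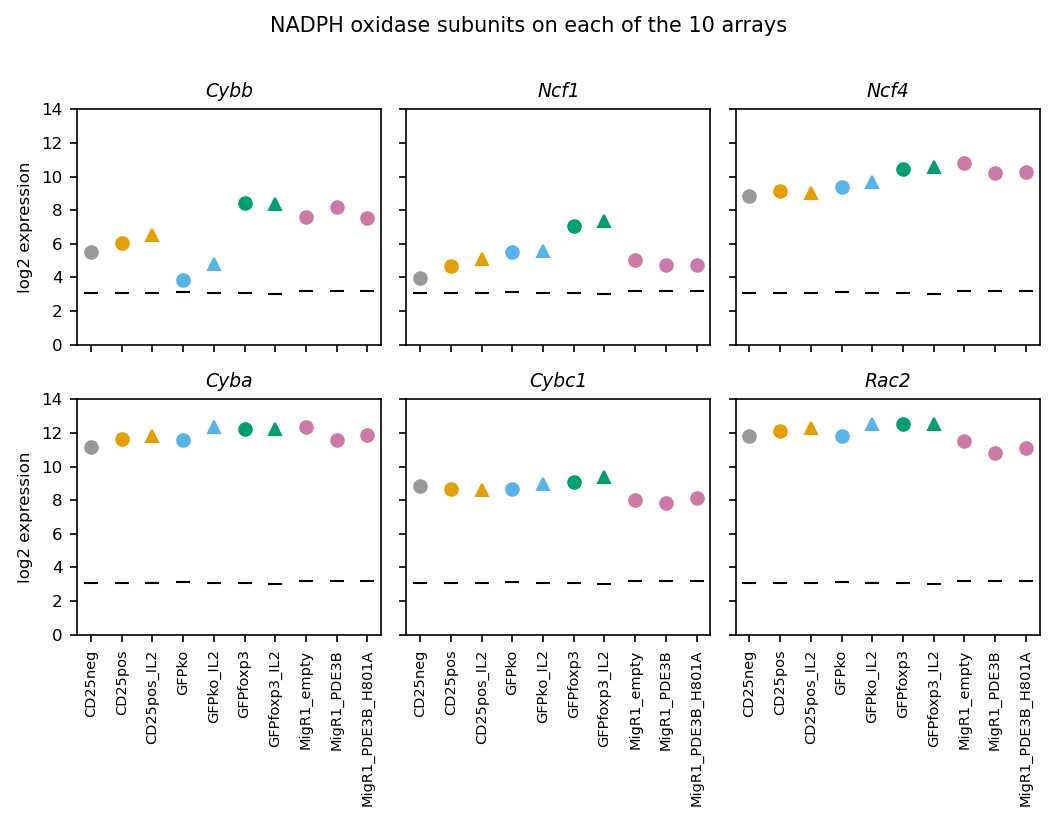
Log2 expression of Cybb and 5 other genes of the phagocyte oxidase on each of the 10 arrays, with circles for untreated or vector arrays, triangles after IL-2 and black dashes for the array median. Cybb and Ncf4 are high in GFPfoxp3 and vector arrays, Ncf1 is high in GFPfoxp3 alone (7.07 and 7.34), and Cyba stays between 11.14 and 12.36.

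The remaining lists of partner genes are small, and their counts stand against the same shares of all genes: 5.44% rose and 2.03% fell over GFPko, and 5.28% rose and 3.45% fell over CD25pos. Among 5 transglutaminase and fibrin genes besides F13a1, 1 rose in both contrasts: Tgm2, tissue transglutaminase, by 1.15 over GFPko (limma adjusted p = 0.0203) and 1.19 over CD25pos (limma adjusted p = 0.0163). Among 4 genes of neuritin and neuronal activity, 1 rose over GFPko, Homer1, a scaffold of signalling receptors, by 0.88 (limma adjusted p = 0.0461), and it also passed over CD25pos, by 0.81. Of 9 IgM and Fc receptor genes besides Fcmr, 0 rose and 1 fell over GFPko: Fcgr3, a low-affinity IgG receptor, by -2.02 (limma adjusted p = 0.0306). Fcgr3 was at 5.48 and 4.52 in GFPko and at 2.96 and 2.99 in GFPfoxp3, so it was higher in GFPko than on any other array (2.70 to 3.90). Of these calls, Tgm2 passed over CD25pos under all 8 alternatives and failed over GFPko under 1, with no filter on dim probe sets (adjusted p 0.0502). Homer1 failed under 5 of 9 over GFPko, with a highest adjusted p of 0.255, and under 6 of 9 over CD25pos, and Fcgr3 failed under 2, with a highest adjusted p of 0.0961.

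Of 6 epithelial adhesion genes, Cd44, a hyaluronan receptor, rose over GFPko by 1.03 (limma adjusted p = 0.0161) and Cd9, a tetraspanin, fell by -1.24 (limma adjusted p = 0.0232), and none passed over CD25pos. St14 had a larger difference over GFPko, 2.26, but did not pass (limma adjusted p = 0.0936), and differed by 1.12 over CD25pos. Of 14 thin filament and sarcomere genes besides Neb, Actn2, an actinin, rose over GFPko by 1.42 (limma adjusted p = 0.0214). Ttn, of the same list, passed in neither contrast, at 0.39 over GFPko and 0.35 over CD25pos. In the vector arrays, where Neb was highest, Ttn was at 9.16 to 9.27, against 2.79 to 3.53 in the sorted cells. Nebl, the nebulin relative nebulette, fell by -1.97 over GFPko (limma adjusted p = 0.0403) and by -2.27 over CD25pos (limma adjusted p = 0.0276), opposite in direction to Neb. Under alternatives Nebl failed in 4 of 9 over GFPko (highest adjusted p 0.116) and in 1 of 9 over CD25pos (0.0912), with differences of -1.03 and -1.40 with the mean of all probe sets, Cd9 in 2 (0.152), and Cd44 and Actn2 in 1 each (0.0518 and 0.0627). Of 7 myelin genes 0 passed in either contrast, a count that shares of this size also allow for a list of this length. The list medians outside the oxidase genes ran from -0.16 to 0.13 over GFPko and -0.05 to 0.45 over CD25pos.

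The vector arrays, which played no part in choosing the genes, separated them. Set against CD25neg, 5 of the 7 genes (Nrn1, Epcam, Cybb, Neb and Ncmap) were at least 2-fold higher in all 3 vector arrays, as were 7.01% of all genes. Their mean difference was 3.36 for Nrn1, 4.30 for Epcam, 2.27 for Cybb and 4.43 for Ncmap, and for Neb 5.99, which is at least 48.5-fold. F13a1 and Fcmr differed from CD25neg by 0.09 and 0.32 and were at background on both sides. CD25neg is shared with the comparison of GFPfoxp3 with CD25neg, in which all 7 genes were at least 2-fold higher, as were 7.31% of all genes.

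Set directly against the GFPfoxp3 arrays, F13a1, Nrn1 and Fcmr were at least 2-fold lower in all 3 vector arrays than in either GFPfoxp3 array, as were 7.72% of all genes, and Neb was at least 2-fold higher, as were 2.53%. At least 3-fold higher were 0 of the 7 and 1.05% of all genes. The mean differences were -4.90 for F13a1, at least 24.3-fold lower, -4.29 for Fcmr and -2.76 for Nrn1, and 1.48 for Neb. Epcam, Cybb and Ncmap differed by -0.70, -0.63 and -0.30. F13a1 was the 8th and Fcmr the 13th lowest of 11939 genes in this comparison, which has a choice effect in it since both were picked for high GFPfoxp3 values. The vector arrays, with Foxp3 RNA at 11.26 to 11.52, thus held F13a1 and Fcmr at the background of Foxp3-negative cells. The larger 3′ bias of the vector arrays moved with this difference, and its part was not tested.

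To read these values against other genes of the same kind, the genes at least 16-fold above CD25neg on both GFPfoxp3 arrays were counted. There were 46 such genes, 6 of them among the 7 (Cybb is not). High GFPfoxp3 values define this set and also chose the 7 genes, so the counts are a description. On all 3 vector arrays 41 of the 46 were at least 2-fold above CD25neg as well, and 3 were within 2-fold of it. Those 3 were F13a1, Fcmr and Prg4, which makes lubricin and was named after its values were seen. Prg4 was at 9.56 and 9.31 in GFPfoxp3 and 4.39 to 4.76 in the vector arrays. Unlike F13a1 and Fcmr, Prg4 was just as high in GFPko, at 9.79 and 9.41.

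**Figure D4:**
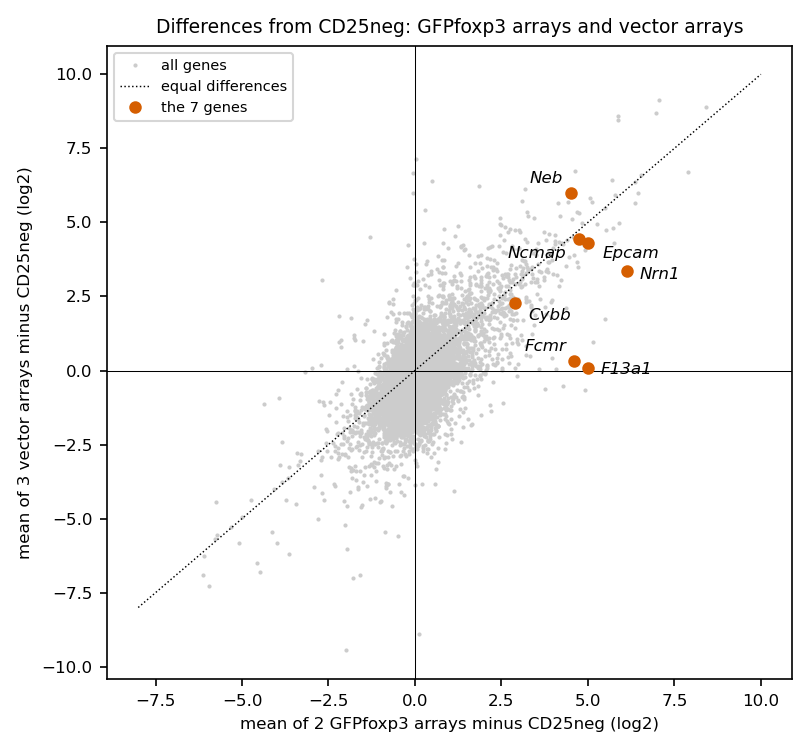
Mean log2 difference from CD25neg of the 2 GFPfoxp3 arrays (horizontal) and of the 3 vector arrays (vertical), 1 grey point for each of 11939 genes and the 7 genes in orange, with a dotted line of equal differences. F13a1 (4.99 and 0.09) and Fcmr (4.61 and 0.32) lie near 0 on the vertical axis, and Nrn1 lies between them and the line. Epcam, Ncmap and Cybb lie near the line, and Neb (4.50 and 5.99) lies above it.

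Among the vector arrays no gene of the 7 differed by 2-fold. With PDE3B against the empty vector 1.2% of all genes were at least 2-fold higher and 4.25% lower. The largest differences among the 7 were Nrn1 at -0.90, Neb at 0.61 and Cybb at 0.55. With the H801A form against the empty vector, where 0.93% of all genes were 2-fold higher and 1.37% lower, Neb differed by 0.48, Nrn1 by -0.38 and Ncmap by 0.28. Neb, Nrn1, Epcam and Ncmap moved in the same direction from the empty vector with either construct, and Cybb, at 0.55 and -0.10, did not. The constructs share their control array, and there is 1 array on each side.

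IL-2 differences played no part in the choice of the genes, and they are the only differences of the 7 that could be tested. In the additive fit of population and IL-2 over 6 arrays, none of the 7 genes passed (limma, adjusted p under 0.05), where 28 of all genes, 0.235%, passed and all of those rose. At an unadjusted p under 0.05 the counts were 0 of 7 and 1261 of all genes, 10.6%. The fitted IL-2 differences were 0.47 for Cybb (SE 0.220, limma adjusted p = 0.530), -0.27 for Fcmr (SE 0.168, limma adjusted p = 0.598), -0.25 for Neb (SE 0.234, limma adjusted p = 0.710) and -0.20 for F13a1 (SE 0.125, limma adjusted p = 0.602). Nrn1 differed by 0.18, Ncmap by 0.13 and Epcam by -0.06, with limma adjusted p of 0.654, 0.698 and 0.957. With 2 residual degrees of freedom the fit compares how alike the IL-2 difference was in the 3 populations, and it says nothing about spread between animals. F13a1 and Fcmr were at or near background in CD25pos and GFPko, and Neb was below it in CD25pos. A difference confined to the cells that express such a gene is averaged with background values and adds to the residual. For these genes a failure to pass therefore says little about IL-2 in the expressing cells.

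Within populations the IL-2 differences were mostly under 1 log2 unit. In GFPfoxp3 cells they ran from -0.65 for Fcmr to 0.46 for Epcam, with Cybb, Neb, Nrn1 and Ncmap between -0.12 and -0.01. The difference was lower than that of Fcmr for 1.14% of all genes in these cells. In GFPko cells Cybb was higher by 0.98 and Neb lower, at -0.88. In CD25pos cells Epcam was lower, at -1.04, the only 2-fold difference among the 7 genes after IL-2, where 0.352% of all genes were at least 2-fold lower. In GFPko and GFPfoxp3 2% and 0.218% of all genes were. No gene of the 7 was 2-fold higher after IL-2 in any population, where 0.997% of all genes in CD25pos, 2.91% in GFPko and 1.73% in GFPfoxp3 were. F13a1 and Fcmr were below the array median in GFPko and CD25pos after IL-2, so neither was detectable outside GFPfoxp3 in the IL-2 arrays.

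**Figure D5:**
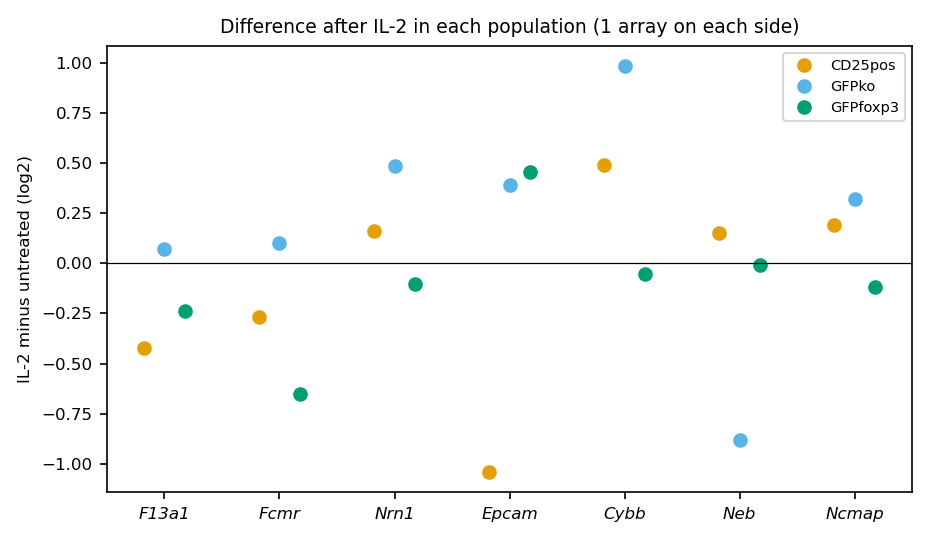
Log2 difference after IL-2 in CD25pos (orange), GFPko (blue) and GFPfoxp3 (green) cells for each of the 7 genes, 1 array on each side of each point. Points lie between -1.04 (Epcam in CD25pos) and 0.98 (Cybb in GFPko), and most are closer to 0.

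The genes whose levels most resembled each of the 7 were found by Pearson's r over the 10 arrays, among 874 genes with an SD of at least 1 log2 unit. The points share array and depth of signal, and r is a description. F13a1 and Fcmr had the same nearest genes, Bco2 (r = 0.987 and 0.997), Atp6v0d2 (0.976 and 0.957) and Patl2 (0.968 and 0.974), and r between F13a1 and Fcmr was 0.992. Bco2, a carotenoid-cleaving enzyme, was at 4.86 and 4.35 in GFPfoxp3 and 2.02 to 2.13 on every other array. Atp6v0d2, a subunit of the vacuolar proton pump, was at 6.18 and 6.52 in GFPfoxp3 and 2.94 to 3.98 elsewhere.

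The other nearest genes were Igf2bp3 (0.958), Actg2 (0.925) and Tnfrsf9 (0.909) for Nrn1, Prdm1 (0.973), Phlpp1 (0.97) and Dcxr (0.967) for Epcam, and Snx9 (0.936), Slc2a3 (0.934) and Myo1f (0.932) for Cybb. For Neb they were Anxa4 (0.978), Gpr15 (0.974) and Camk2n1 (0.97), and for Ncmap Ptpn13 (0.981), Lamc1 (0.980) and Pmaip1 (0.978). Prdm1 makes Blimp-1, a factor of effector lymphocytes, and was at 9.93 and 9.68 in GFPfoxp3, 8.96 to 9.71 in the vector arrays and 6.02 to 7.68 elsewhere. Gpr15, a receptor that guides T cells to the colon, was at 6.29 and 5.86 in GFPfoxp3 and 7.18 to 7.44 in the vector arrays. It was at 4.54 and 3.32 in GFPko, 3.27 and 2.14 in CD25pos without and with IL-2 and 1.65 in CD25neg. The populations stood in the order seen for Neb, but for Gpr15 untreated CD25pos was nearly level with GFPko_IL2, unlike for Neb. Over the 7 arrays of sorted cells alone the 3 nearest genes were others for 6 of the 7, and Fcmr kept 1 of its 3.

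Among themselves the 7 genes split by how they stood in the vector arrays. Over 10 arrays Epcam and Ncmap correlated with r = 0.968, Neb and Ncmap with 0.916, and F13a1 and Neb with 0.246. Over the 7 sorted-cell arrays alone r was 0.967 between F13a1 and Epcam and 0.737 between F13a1 and Neb, values that the choice of genes high in GFPfoxp3 raises. The lowest r over those arrays was 0.434, between Cybb and Neb, the genes at opposite ends in GFPko.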

How the data were processed

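RNA of sorted mouse CD4 T cells, amplified in 2 rounds with a MessageAmp II kit per the labels' protocols, was hybridized to 10 Affymetrix mouse arrays, 1 per group. The deposited log2 values of 45101 probe sets were normalized together over the arrays by the authors, per the series' design text; software and method are unknown, being not given in the sources used here. The log2 scale was read from the range of the values. Amplification from the 3′ end loses probe sets far from it first. The files give no probe positions, and precision is limited by the number of arrays.

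Of the probe sets 34958 had 1 gene in the platform annotation, 932 several and 9211 none listed, and 34754 were updated by Entrez ID to the GRCm38.p6 gene table, used for names and neighbours. Genes were kept where at least 1 array reached its own median, which left 11939 of 18194, each read by its probe set with the highest mean. A fold given as "at least" replaces a lower side that is below background with the array median (or with the gene's value where that is higher).

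Population and IL-2 were fitted additively over 6 arrays with limma 3.58.1 in R 4.3.3 (Benjamini-Hochberg, 0.05; 2 residual degrees of freedom from the interaction, prior of 2.23 with an SD of 0.129). The fit was tested on simulated data. P-values measure only how alike a difference was over the other factor of the fit in these samples, and not spread between animals. All other comparisons have 1 array on a side and no test. Tables and figures used Python 3.11.15. Named genes were the 7 genes, the 3 genes most like each, called members of fixed partner lists (up to 4 each, and all oxidase genes), Foxp3, and the first gene after the top 8 called increases in each choosing contrast. Ttn and St14, which did not pass, were named after their values were seen and were not followed under alternatives. The 7 genes and the lists were chosen with earlier results of these data known. Alternatives were other normalizations, filters, probe set rules, fits and a 3-fold threshold.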

Additional observations from a re-analysis of the deposited data

Results flagged for a closer look

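The IL-2 difference of 3 of the 7 genes moved in opposite directions in a pair of populations, with 1 array on each side and a gap of at least 1 log2 unit. None of these differences between populations was tested. For Epcam the IL-2 difference in GFPko was 1.43 above that in CD25pos, and in GFPfoxp3 it was 1.5 above that in CD25pos, the same CD25pos arrays serving both. For Cybb the IL-2 difference in GFPfoxp3 minus that in GFPko was -1.04. For Neb the IL-2 difference in GFPko minus that in CD25pos was -1.03, with the CD25pos level below background.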

How the results depend on the processing

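The IL-2 fit called 28 of all genes. It called 0 with quantile normalization (1267 at an unadjusted p under 0.05) or no filter on dim probe sets (1521). It also called 0 with trend and robust variance (1124), or without probe sets whose identifiers end in _s_at, _x_at or _a_at (1040). Without the arrays of CD25pos (975), GFPko (1160) or GFPfoxp3 (885) it called 0 as well. It called 121 with centring on the kept genes, 53 with a filter on the mean level and 59 with all 10 arrays in the fit. For GFPfoxp3 minus GFPko, 892 calls became 1373 with centring, 382 with no filter and 408 without the arrays of CD25pos. Centring moved the median of all genes by -0.14 and the share of calls that rose from 72.9% to 51.4%. For GFPfoxp3 minus CD25pos, 1042 calls became 609 with no filter. With fewer arrays fewer degrees of freedom remain, and for the other settings the cause was not tested.

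For the 7 genes, 74 of 76 fitted IL-2 differences kept their direction and did not pass, with limma adjusted p from 0.446 to 0.999. The 2 that turned were Epcam, 0.42 without the arrays of CD25pos, and Neb, 0.0701 without the arrays of GFPko. Of 42 differences of GFPfoxp3 from GFPko or CD25pos under alternatives, 37 moved by less than the spread. The other 5 were Epcam and Cybb in both contrasts with the mean of all probe sets, given above, and Ncmap over GFPko, 3.29 with centring. For the oxidase and partner genes named, 230 of 260 differences kept their direction and their side of the threshold, 26 no longer passed and 2 newly passed. The 2 that turned were of genes that never passed, Rac1 over GFPko (0.1702 with the mean of all probe sets) and Nox4 (-0.0796 with centring). All 24 counts of genes 2-fold apart fell by over 1.5 times at a 3-fold threshold, where Neb left the genes higher than GFPko in both pairs and was no longer higher in the vector arrays than in GFPfoxp3. The genes most like each of the 7 changed with the measure, 0 or 1 of 3 being shared with Spearman's rho or over 7 arrays. No paired analysis was possible because each group has 1 array and the labels carry no replicate numbers. With 1 array per group, no difference between groups has a replicate check, and below-background levels give only bounds.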
